A study of Mus musculus with 18 samples.

Results

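The NF-κB subunits and regulators were followed here as 10 genes, picked by symbol from the 25124 genes counted in each fat depot. They comprised the 5 genes for the DNA-binding subunits (Nfkb1, Nfkb2, Rela, Relb and Rel) and the inhibitor genes Nfkbia and Nfkbie. The others were Nfkbiz, the gene for a nuclear cofactor, the kinase gene Ikbkb, and Tnfaip3, the gene for A20. All 10 were measured in every library and passed the filter on low counts in all 3 depots.

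The libraries came from male mice on the C57BL/6J background. WT mice and C6KO mice, which lack caspase-6 in the whole body, were offspring of heterozygous parents. They began a diet with 60% of its calories from fat (HFD) at 10 to 14 weeks of age, ate it for 12 weeks and were fasted before tissue collection. Brown fat (BAT), the subcutaneous inguinal depot (iWAT) and the visceral epididymal depot (eWAT) each gave 3 WT and 3 C6KO libraries of poly(A) RNA, 18 libraries in all. Every mouse ate the HFD, so no value below shows an effect of the diet itself, and because the deletion is global the cell type in which caspase-6 is missing is not resolved.

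NF-κB is a family of dimeric transcription factors. In resting cells the dimers are held back by IκB proteins, and signals from tumour necrosis factor, interleukin-1 and Toll-like receptors activate the IκB kinase, which marks the IκBs for destruction and lets RelA- and p50-containing dimers enter the nucleus. A second, slower branch processes p100, the product of Nfkb2, to p52, which pairs with RelB. Several members are themselves NF-κB targets: Nfkbia (IκBα), Nfkbie (IκBε) and Tnfaip3 restrain the pathway that induces them, while Nfkbiz encodes IκBζ, a nuclear cofactor. In obese fat the pathway is known for inflammatory signalling in macrophages, and adipocytes use it as well. Much of its control acts on proteins, which were not measured here.

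On mm10, the build of the deposited coordinates, the members lie on 9 chromosomes. Nfkb1 (NM_008689) spans chr3:135584655-135691547 on the minus strand, 5.67 Mb from Casp6 (chr3:129901415-129914112), and is the only member on the chromosome of the deleted gene. Genes within 10 Mb of Casp6, Casp6 itself left out, were compared between C6KO and WT (edgeR's quasi-likelihood test, at least 1.5-fold with an adjusted p below 0.05). Those called lower in C6KO were 4 of 79 tested in BAT (1.07% of all genes), 6 of 85 in eWAT (0.208%) and 3 of 83 in iWAT (0.0206%). These 3 were all the genes called lower in iWAT, and 1 gene near Casp6 was called higher in eWAT. An effect of the deletion on Nfkb1 and one of DNA linked to the targeted allele therefore cannot be told apart. Rela (NM_009045, chr19:5637541-5648134) and Nfkb2 (NM_019408, chr19:46305695-46312090) share a chromosome but lie far apart. The others are Relb (NM_009046, chr7:19606222-19629438), Rel (NM_009044, chr11:23736850-23770969), Nfkbia (NM_010907, chr12:55489409-55492647), Nfkbie (NM_008690, chr17:45555700-45563168), Nfkbiz (NM_030612, chr16:55811377-55838641), Ikbkb (NM_010546, chr8:22659205-22706583) and Tnfaip3 (NM_009397, chr10:19000910-19015410). The same transcript was counted for each member in all 3 depots.

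Promoter sequence was at hand for 6 members in the RefSeq table (GRCm38.p6), as windows of 300 bases from 250 before to 50 after the annotated start. Each was searched on both strands for the NF-κB consensus motif of 10 letters, the sequence that RelA and p50 dimers bind. Tnfaip3, Rel, Nfkbia, Nfkbie and Nfkb2 held it in at least 1 window and Rela did not. That is 83.3% of 6 member genes, against 5.14% of 27025 genes in the same table. By window it was 77.8% of 9 member windows, against 4.51% of 32851 windows, and a further Tnfaip3 window held no match. The 130 bases before the start are shown for these 5 because 4 of them, Tnfaip3, Rel, Nfkbie and Nfkb2, are among the members whose levels differed most between depots or libraries. Sequences run 5′ to 3′ on the gene's strand, the last base is the one before the start, and capitals mark the motif, with 1 run of capitals where matches on the 2 strands overlap.
Tnfaip3 (chr10:19015411-19015540, minus strand): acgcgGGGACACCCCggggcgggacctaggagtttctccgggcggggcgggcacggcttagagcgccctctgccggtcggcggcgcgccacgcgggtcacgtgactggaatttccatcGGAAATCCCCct
Rel (chr11:23770970-23771099, minus strand): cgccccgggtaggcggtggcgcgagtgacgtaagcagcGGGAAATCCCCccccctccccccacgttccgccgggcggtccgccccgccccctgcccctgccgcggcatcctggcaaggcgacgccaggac
Nfkbia (chr12:55492648-55492777, minus strand): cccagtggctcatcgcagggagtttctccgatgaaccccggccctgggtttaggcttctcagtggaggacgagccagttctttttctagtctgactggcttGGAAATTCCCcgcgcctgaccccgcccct
Nfkbie (chr17:45555570-45555699, plus strand): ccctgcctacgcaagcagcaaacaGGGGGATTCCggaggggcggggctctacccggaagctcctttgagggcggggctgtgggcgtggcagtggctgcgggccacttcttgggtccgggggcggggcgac
Nfkb2 (chr19:46304607-46304736, plus strand, before the most upstream of its annotated starts): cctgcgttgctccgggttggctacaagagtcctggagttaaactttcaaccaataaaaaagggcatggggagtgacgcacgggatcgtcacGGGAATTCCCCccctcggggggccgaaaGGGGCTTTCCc
The first base of the motif lay 125 and 12 bases before the start in Tnfaip3, 92 in Rel, 29 in Nfkbia, 106 in Nfkbie, and 39 and 11 in Nfkb2. The counted Nfkb2 transcript begins further downstream, and its window, not printed, held a match 236 bases before that start. A match in these letters is a description and not a measured binding site.

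Libraries held 7803108 to 12428683 counts in BAT, 16717201 to 19139694 in eWAT and 16506034 to 19043523 in iWAT, so BAT values carry the largest counting error. No C6KO library reached the Casp6 level of any WT library of its depot, at 5.55 to 7.98 against 16.1 to 20.1 CPM (counts scaled to library size by TMM within the depot) in iWAT, 4.29 to 6.66 against 19.0 to 23.1 in eWAT and 3.08 to 6.91 against 11.2 to 18.7 in BAT. The labelled tissues carried their defining markers: Adipoq was at 864 CPM or above in all 18 libraries, Ucp1, the uncoupling protein of brown adipocytes, at 4058 to 9763 CPM in BAT and at most 6.13 CPM in white fat, and the mesothelial gene Upk3b at 15.5 to 77.7 CPM in eWAT and at most 0.166 CPM elsewhere. Some libraries stood apart from their group. The summed macrophage markers (20 genes) were 740 and 770 CPM in C6KO-1 and C6KO-2 of iWAT but 2065 CPM in C6KO-3. The summed muscle markers (8 genes) were 36220 CPM in WT-2 of BAT against 122 to 6823 CPM in the other BAT libraries, and its summed lymphoid markers (17 genes measured) were 163 CPM against 9.61 to 16.7 CPM. The lymphoid sum was 189, 299 and 403 CPM in WT-2, WT-3 and C6KO-3 of eWAT against 37.5 to 50.4 CPM in its other 3 libraries.

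To show where the family is transcribed in obese fat, levels were first compared among WT depots as RPKM (CPM scaled over all 18 libraries and divided by transcript length), which allows genes of different length to be set side by side. Nfkbia was the most abundant member in each depot and Rel the least, with Rela, the main activating subunit, second. In WT iWAT, Nfkbia measured 56.7, 73.6 and 60.5 RPKM, Rela 32.6, 34.7 and 31.1, and Nfkb1 16.5, 18.1 and 17.3. Ikbkb followed at 14.5 ± 1.27 RPKM (mean ± SD, n = 3). Relb at 11.1 ± 1.5 and Nfkb2 at 10.9 ± 1.39 overlapped, as did Nfkbiz at 3.78 ± 1.19 and Nfkbie at 3.31 ± 0.878, whereas Tnfaip3 at 6.88 ± 1.21 stood between the 2 pairs without overlap and Rel at 1.69 ± 0.0584 lay below all others.

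In WT eWAT the order was nearly the same, with Nfkbia at 57.8 ± 11.3 RPKM, Rela at 33.0 ± 1.81, Nfkb1 at 25.7 ± 3.21 and Ikbkb at 18.3 ± 1.21. Below these 4, which did not overlap, Nfkb2 at 15.4 ± 1.57 and Relb at 13.99 ± 2.52 overlapped, and each step from Tnfaip3 at 9.05 ± 1.38 through Nfkbiz at 7.55 ± 2.30 and Nfkbie at 6.82 ± 2.10 to Rel at 4.45 ± 1.15 was within the spread of the libraries. In WT BAT, Nfkbia at 54.2 ± 12.3 and Rela at 24.6 ± 1.02 RPKM stood apart from the rest. Nfkb1 at 12.7 ± 1.86, Ikbkb at 9.61 ± 1.75, Relb at 7.98 ± 0.335 and Nfkb2 at 7.07 ± 1.52 each overlapped the next. They were followed by Nfkbiz at 4.52 ± 0.137, Tnfaip3 at 3.07 ± 0.538, and Nfkbie at 1.77 ± 0.562 and Rel at 1.72 ± 0.296, which overlapped. The order of the members thus differed little between depots, while the level of most of them did.

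**Figure D1:**
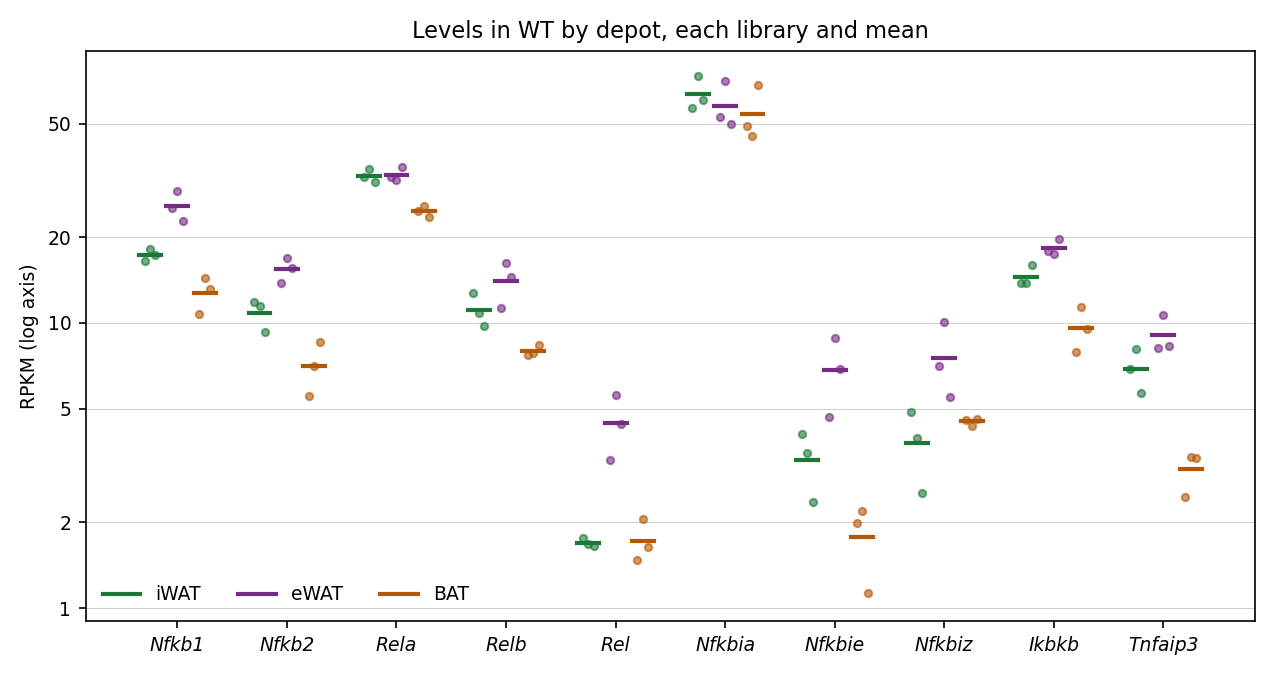
RPKM (log axis) of each member in the 3 WT libraries of iWAT, eWAT and BAT, with points for libraries and bars for means. Most members are highest in eWAT and lowest in BAT, whereas the Nfkbia points of the 3 depots overlap.

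The depots were compared in 1 edgeR quasi-likelihood fit of all 18 libraries, and a call required a fold change of at least 1.5 and a p below 0.05 after Benjamini-Hochberg adjustment. Between eWAT and iWAT of WT mice, Rel, Nfkbie and Nfkbiz were higher in eWAT, 3 of 10 members, and none was lower, where 12.8% of 15866 genes tested were called higher and 12.9% lower. Rel, the subunit best known from lymphocytes and myeloid cells, measured 3.31, 5.604 and 4.43 RPKM in eWAT against 1.76, 1.68 and 1.65 in iWAT, with no overlap. It was 2.62-fold higher (log2 1.39 ± 0.278 SE, adjusted p = 0.00121). Nfkbie measured 4.68, 8.87 and 6.91 against 4.08, 3.501 and 2.35 RPKM and was 2.06-fold higher (adjusted p = 0.00986). Nfkbiz measured 7.08, 10.04 and 5.52 against 4.88, 3.94 and 2.53 RPKM and was 2.0-fold higher (adjusted p = 0.00365). Both showed no overlap between depots. The Nfkbie call was lost without WT-3 of iWAT (adjusted p = 0.0561) or WT-2 of eWAT (adjusted p = 0.0662).

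Nfkb1, 1.48-fold higher in eWAT (adjusted p = 0.00196), and Nfkb2, 1.42-fold higher (adjusted p = 0.0259), passed the p threshold but not the fold minimum. Nfkb1 passed both without WT-2 of iWAT (log2 0.60) or WT-3 of eWAT (log2 0.65). Ikbkb at 1.26-fold (adjusted p = 0.0501) and Tnfaip3 at 1.32-fold (adjusted p = 0.0921) did not overlap between depots but missed the threshold, and so did Relb at 1.26-fold (adjusted p = 0.141). Rela had a log2 difference of 0.01 with a 95% interval from -0.21 to 0.23, and Nfkbia one of -0.14 with an interval from -0.50 to 0.22.

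BAT stood at the other end. Against eWAT, 8 of 10 members were lower in WT BAT and none was higher, where 23.6% of all genes were called lower and 25% higher. The largest difference was that of Nfkbie, 3.85-fold lower in BAT at 1.98, 2.19 and 1.13 RPKM (log2 -1.94 ± 0.303 SE, adjusted p = 3.54e-05). Tnfaip3, whose product removes ubiquitin chains that sustain NF-κB signalling, measured 2.45, 3.39 and 3.37 RPKM in BAT against 8.18, 10.6 and 8.33 in eWAT, 2.93-fold lower (adjusted p = 1.68e-06). Rel was 2.58-fold lower (adjusted p = 0.000563), Nfkb2 2.18-fold (adjusted p = 2.56e-05), Nfkb1 2.01-fold (adjusted p = 2.64e-06) and Ikbkb 1.90-fold (adjusted p = 9.42e-06). Relb was 1.75-fold lower (adjusted p = 0.000686) and Nfkbiz 1.67-fold (adjusted p = 0.0124), the latter call being lost without WT-2 of eWAT (adjusted p = 0.1). Rela passed the p threshold at 1.34-fold lower (adjusted p = 0.00225) and was below the fold minimum. Nfkbia did not pass, with a log2 difference of -0.09 and an interval from -0.45 to 0.27.

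Against iWAT, 4 of 10 members were lower in WT BAT and none was higher, where 18.7% of genes were called lower and 20.1% higher. Tnfaip3 was 2.23-fold lower (adjusted p = 7e-05), Nfkbie 1.87-fold (adjusted p = 0.0208), Nfkb2 1.53-fold (adjusted p = 0.00664) and Ikbkb 1.51-fold (adjusted p = 0.00113). Of these, the Tnfaip3 call alone survived the removal of any single library. The count of 4 became 2 without WT-1 or WT-2 of iWAT or WT-1 of BAT: the Nfkbie call was lost without WT-1 of iWAT (adjusted p = 0.0887), WT-2 of iWAT (adjusted p = 0.0538) or WT-3 of BAT (adjusted p = 0.103), Nfkb2 slipped below 1.5-fold without WT-1 of iWAT, WT-2 of iWAT or WT-1 of BAT (log2 -0.55, -0.58 and -0.48), and Ikbkb did so without WT-3 of iWAT or WT-1 of BAT (log2 -0.52 and -0.48). Nfkbiz had a log2 difference of 0.26 with an interval from -0.24 to 0.76, and Rel one of 0.03 with an interval from -0.57 to 0.62.

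Markers of several cell types differed between the WT depots, macrophage markers among them. The macrophage sum in WT, scaled over all 18 libraries, was 9668 to 11880 CPM in eWAT, 2841 to 3243 CPM in iWAT and 1170 to 1509 CPM in BAT. All 20 macrophage markers were called lower in BAT than in eWAT, at a median log2 difference of -3.07 against -0.97 for the 10 members and 0.03 for all genes. The 9 progenitor and fibroblast markers had a median of -2.07 in that contrast, with 8 called lower. In eWAT against iWAT the medians were 0.45 for the members, 1.86 for macrophage, 2.92 for lymphoid and -1.52 for adipocyte markers. In BAT against iWAT the macrophage median was -1.22, and 8 members were below 0 while Rel and Nfkbiz were at 0.03 and 0.26. In bulk tissue, fewer cells of a type and less RNA per cell cannot be told apart, and the part of cell composition in the depot differences of the members was not tested.

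Whether loss of caspase-6 altered NF-κB transcripts in obese fat was then asked depot by depot, with 3 C6KO against 3 WT libraries. No member was called in any depot by edgeR's quasi-likelihood test, in either direction. The same test called the deleted gene Casp6 in eWAT only, at 3.61-fold lower (adjusted p = 0.0132). Casp6 was missed in iWAT at 2.85-fold lower (adjusted p = 0.0751) and in BAT at 2.83-fold lower (adjusted p = 0.0671). A member that was not called is therefore not shown to be unchanged. In iWAT 0.0206% of 14533 genes tested were called lower and 0.00688% higher, in eWAT 0.208% of 14889 lower and 0.537% higher, and in BAT 1.07% of 13595 lower and 0.169% higher. At an unadjusted p below 0.05, 3 members were lower in iWAT (9.29% of all genes were), 2 in eWAT (7.82%) and 1 in BAT (8.64%), and none was higher. DESeq2 called 0 members in iWAT, where it called 2.66% of genes lower, 1 in eWAT (0.964%) and 0 in BAT (2.07%). Most estimates were nonetheless below 0. In BAT this held for 8 members (median log2 -0.12, all genes -0.03), in eWAT for 9 (median -0.20, all genes -0.01) and in iWAT for 7 (median -0.19, all genes 0.03).

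**Figure D2:**
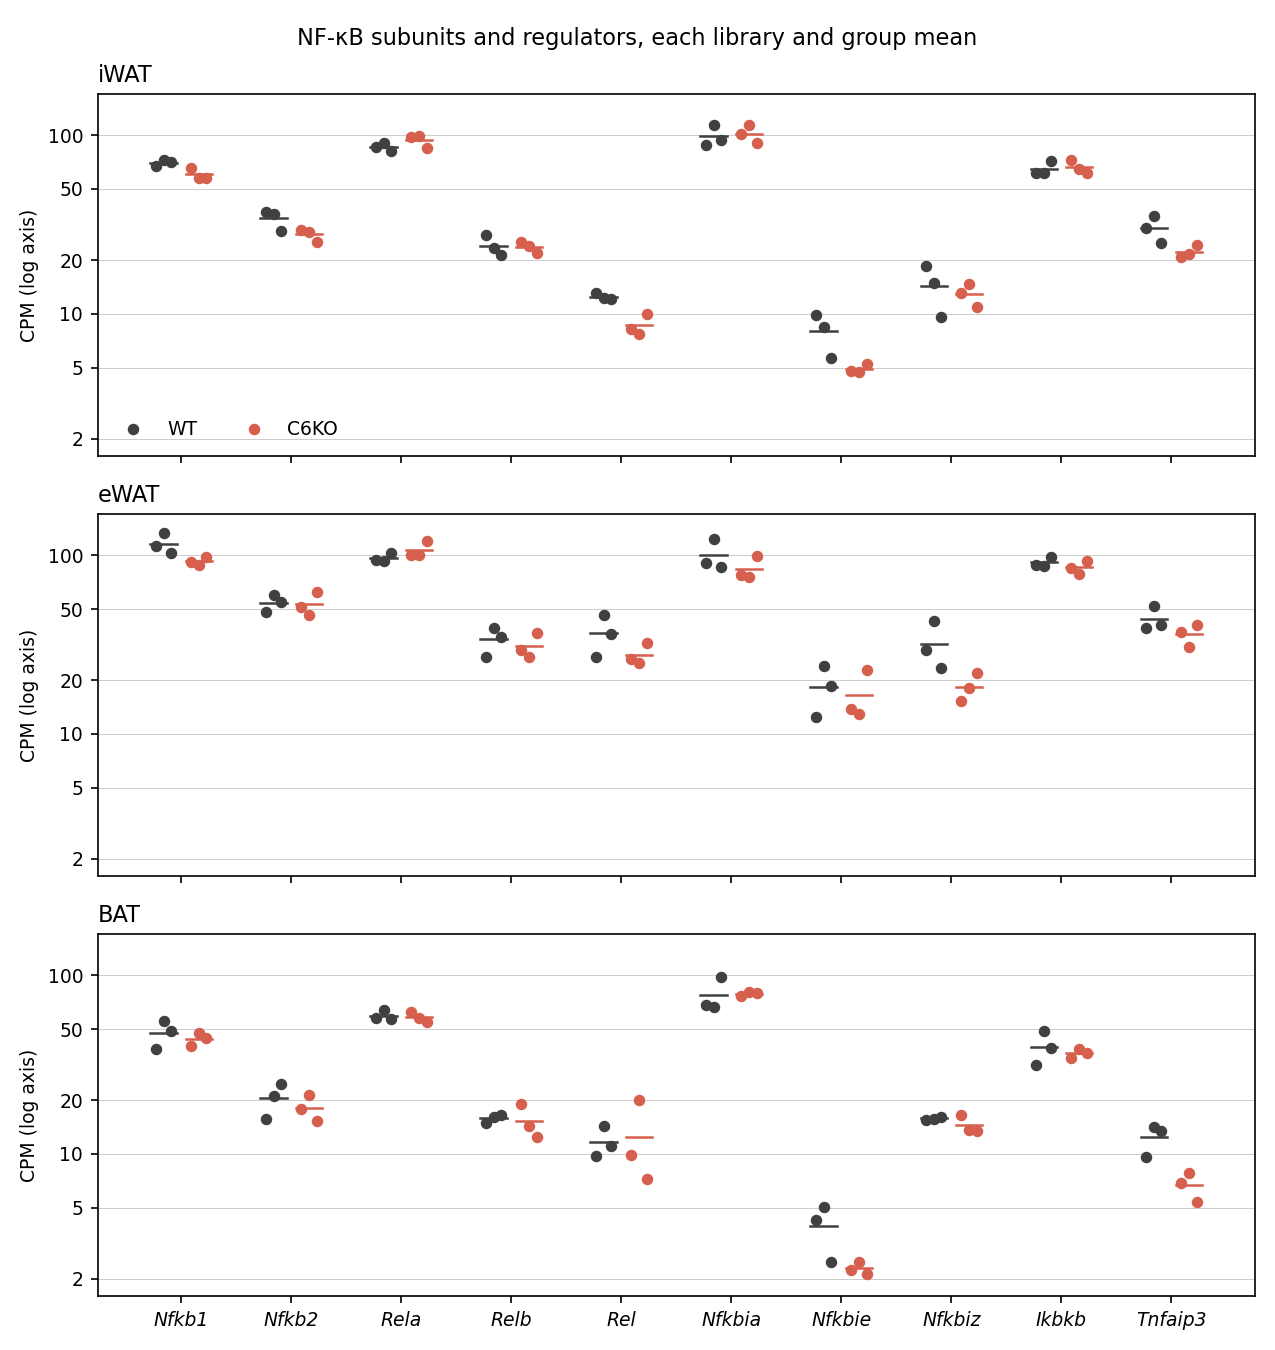
CPM (log axis) of each member in every library, WT and C6KO, by depot, with bars for group means. The groups separate for Nfkb1, Rel, Nfkbie and Tnfaip3 in iWAT, Nfkb1 and Nfkbiz in eWAT, and Nfkbie and Tnfaip3 in BAT, always with WT above C6KO.

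In iWAT, 4 of 10 members were lower in C6KO with no overlap between the groups, where 12.2% of all genes tested were. Rel measured 13.0, 12.3 and 12.2 CPM in WT and 8.18, 7.70 and 9.97 CPM in C6KO. Its log2 fold change was -0.54 ± 0.177 (SE), with an adjusted p of 0.206. The WT libraries lay close together and above all C6KO libraries, of which C6KO-3, the library with the most macrophage transcripts in its group, was the highest. Tnfaip3 measured 30.1, 35.2 and 24.9 CPM in WT and 20.9, 21.6 and 24.4 CPM in C6KO, with C6KO-3 again the highest of its group and just below the lowest WT library (log2 -0.43 ± 0.159, adjusted p = 0.236).

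Nfkbie measured 9.83, 8.39 and 5.67 CPM in WT iWAT and 4.76, 4.75 and 5.21 CPM in C6KO. The C6KO libraries agreed closely while the WT libraries spread over a wider range (log2 -0.70 ± 0.256, adjusted p = 0.236). Nfkb1 measured 67.1, 73.0 and 70.3 CPM against 65.4, 57.9 and 57.9 CPM, a small separation (log2 -0.22 ± 0.109, adjusted p = 0.359). Rela, Nfkbia and Ikbkb, the most abundant members together with Nfkb1, had estimates of 0.12, 0.04 and 0.03 with overlapping groups. Relb at -0.03, Nfkb2 at -0.29 and Nfkbiz at -0.15 overlapped too.

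Leaving out C6KO-3 raised the number of genes called lower in iWAT from 3 to 951, 6.43% of those tested, and still called 0 members. Rel then had a log2 fold change of -0.68 (adjusted p = 0.0541), Tnfaip3 -0.52 (adjusted p = 0.102) and Nfkbie -0.76 (adjusted p = 0.141).

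In eWAT, Nfkbiz and Nfkb1 were the members without overlap, 2 of 10, where 11.2% of all genes were lower without overlap. Nfkbiz, the nuclear cofactor that helps induce interleukin-6 and other secondary response genes, measured 29.6, 42.8 and 23.4 CPM in WT and 15.2, 17.98 and 22.0 CPM in C6KO. The highest C6KO library lay just under the lowest WT library, and WT-2 stood well above the rest. The fold change was 1.74-fold lower (log2 -0.80 ± 0.231, adjusted p = 0.122) by edgeR and log2 -0.79 (adjusted p = 0.0196) by DESeq2, the only member called by DESeq2. Over the alternatives run the adjusted p was from 0.0196 to 1.0, the latter against a fold change of 1.5, and the log2 fold change was -0.53 without WT-2.

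Nfkb1 measured 113, 132 and 103 CPM in WT eWAT and 91.9, 88.0 and 97.6 CPM in C6KO (log2 -0.33 ± 0.116, adjusted p = 0.182). The margin between the groups was modest. Rel (log2 -0.40), Tnfaip3 (-0.29), Nfkbia (-0.25), Nfkbie (-0.15), Relb (-0.12), Ikbkb (-0.09) and Nfkb2 (-0.03) overlapped between genotypes, and Rela, with a log2 fold change of 0.15, was the only member estimated higher.

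Within eWAT, 5 members were highest in the libraries richest in lymphoid transcripts, of both genotypes. WT-2, WT-3 and C6KO-3, the 3 libraries with the highest lymphoid marker sums, were also the 3 highest for Nfkb2, Relb, Rel, Nfkbie and Tnfaip3, 5 of 10 members, where 7.94% of 14889 genes tested had the same split. Relb measured 39.4, 35.0 and 36.6 CPM in them against 26.9, 29.5 and 27.1 CPM in WT-1, C6KO-1 and C6KO-2. Nfkbie measured 23.9, 18.5 and 22.7 CPM against 12.4, 13.8 and 12.9 CPM, and Nfkb2 59.8, 54.8 and 62.2 CPM against 47.9, 51.0 and 46.2 CPM. For these 3 genes C6KO-3 lay inside the range of WT-2 and WT-3 or above it, and WT-1 lay near C6KO-1 and C6KO-2. The split was narrow for Tnfaip3, at 40.58 CPM or above against 39.38 CPM or below. Rel in C6KO-3 at 32.1 CPM was below the 46.4 and 36.4 CPM of WT-2 and WT-3. Cd79a, which marks B cells, was between 1.18 and 42.0 CPM across the 6 libraries. The summed dendritic cell and neutrophil markers (11 genes) were highest in the same 3 libraries, at 124, 67.8 and 71.4 CPM in WT-2, WT-3 and C6KO-3 against 44.8 to 57.6 CPM in the others. The split was set by marker sums of these same libraries. The 5 members also covaried with each other, so they are not independent observations of it. The split is a description over 6 libraries, and the part of either cell group in it was not tested. In iWAT, where the lymphoid sum was at most 42.8 CPM, and in BAT, where it was 163 CPM in WT-2 and at most 16.7 CPM in the others, at most 2 of the 3 libraries with the highest sum were among the top 3 for any member.

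**Figure D3:**
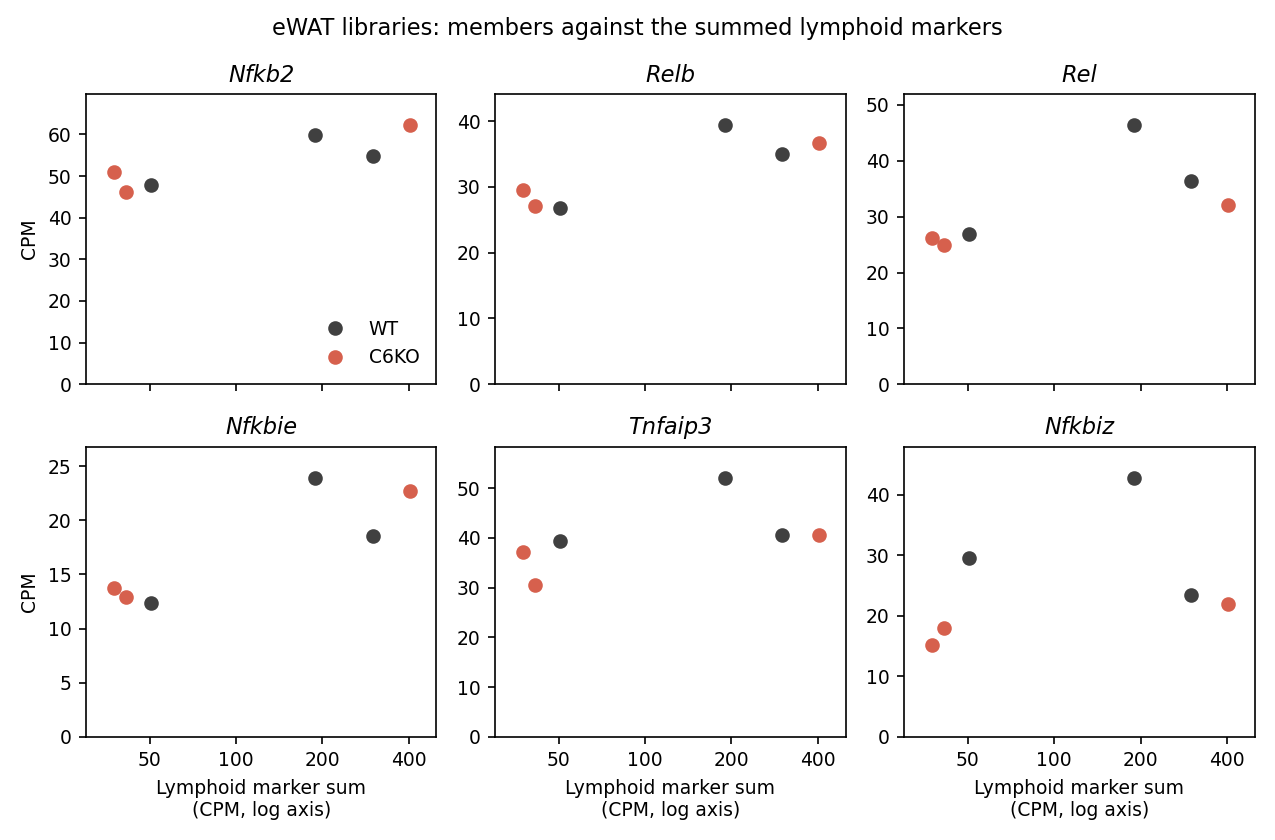
CPM of 6 members (vertical axes from 0) against the summed lymphoid markers (CPM, log axis) in the 6 eWAT libraries, coloured by genotype. The 3 libraries at 189 to 403 CPM of lymphoid markers hold the 3 highest values of Nfkb2, Relb, Rel, Nfkbie and Tnfaip3, whereas Nfkbiz separates by genotype.

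In BAT, Tnfaip3 and Nfkbie were lower in every C6KO than in every WT library, 2 of 10 members, where 12.1% of all genes were. Tnfaip3 measured 9.56, 14.1 and 13.5 CPM in WT and 6.86, 7.79 and 5.35 CPM in C6KO, from 74, 160 and 135 counts against 58, 94 and 55. It was 1.86-fold lower, the largest difference of any member in any depot (log2 -0.89 ± 0.248, 95% interval -1.45 to -0.33). This did not pass within BAT (adjusted p = 0.139 by edgeR and 0.0925 by DESeq2). It passed when edgeR estimated the spread over all 18 libraries (adjusted p = 0.0156). The biological coefficient of variation was 0.255 in that fit and 0.32 in BAT alone. The p of 0.0156 therefore does not measure the spread between the BAT libraries by themselves. That fit called 430 genes lower in BAT, against 145 when BAT was fitted alone. Without WT-2, the library with muscle and lymphoid transcripts, which had the highest Tnfaip3 and Nfkbie of the BAT libraries, the log2 fold change was -0.79 (adjusted p = 0.256), and it stayed between -1.02 and -0.76 whichever library was left out.

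Nfkbie was at the lower end of detection in BAT, at 4.27, 5.02 and 2.50 CPM in WT and 2.25, 2.49 and 2.14 CPM in C6KO, or 19 to 57 counts per library. WT-3 nearly touched the C6KO range (log2 -0.77 ± 0.367, adjusted p = 0.406), and without WT-2 the log2 fold change was -0.54. Rel had the widest spread of the family, at 9.69, 14.4 and 11.1 CPM in WT and 9.82, 20.1 and 7.20 CPM in C6KO. The direction rested on single libraries: the log2 fold change was 0.08 with all of them, -0.44 without C6KO-2 and -0.0023 without WT-1.

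The remaining members showed little in BAT. Estimates for Nfkb1, Nfkb2, Rela, Relb, Nfkbia, Nfkbiz and Ikbkb were between -0.18 and 0.03 with overlapping groups, and all of these but Nfkbiz changed sign when some single library was left out, those of Nfkb1, Rela, Nfkbia and Ikbkb without WT-2. Nfkbia measured 68.2, 66.9 and 97.3 CPM in WT and 76.9, 80.8 and 79.1 CPM in C6KO, all of the C6KO values lying inside the WT range.

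**Figure D4:**
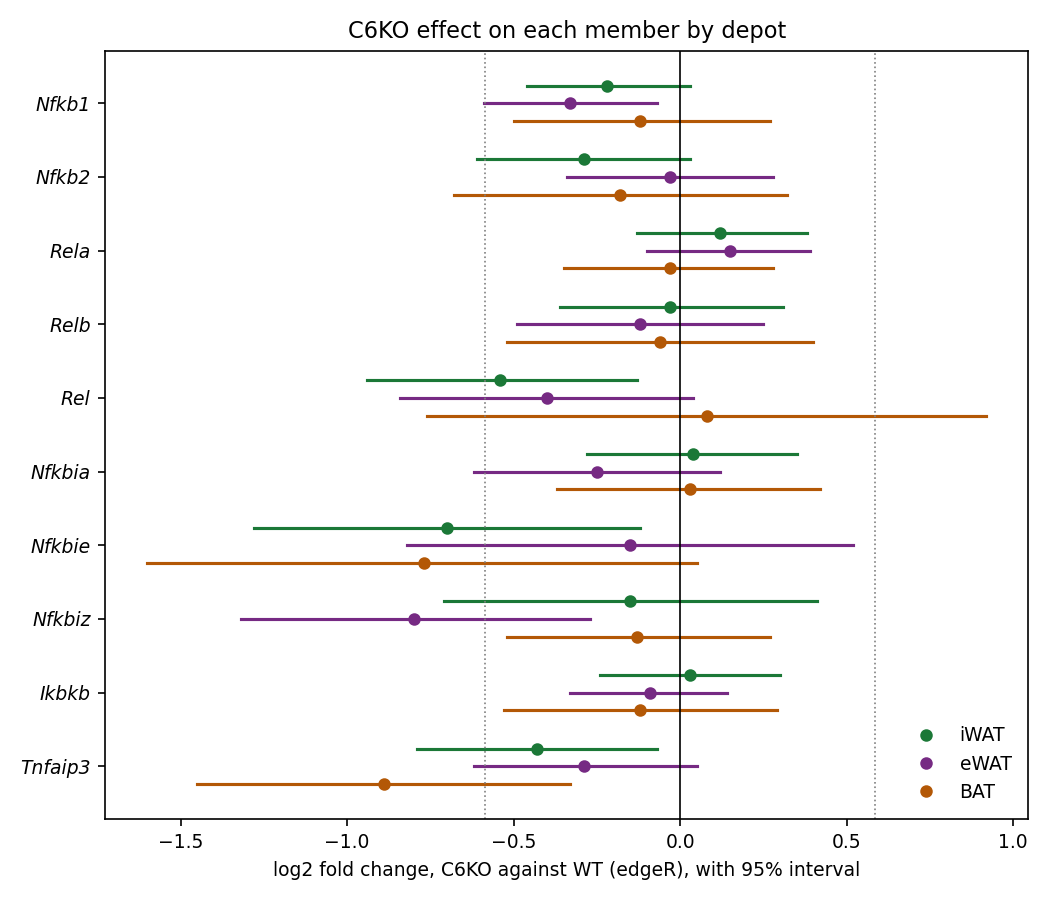
Log2 fold change of each member for C6KO against WT in each depot, points for edgeR estimates and lines for 95% intervals, with dotted lines at a fold change of 1.5. The interval leaves out 0 for Rel, Nfkbie and Tnfaip3 in iWAT, Nfkb1 and Nfkbiz in eWAT and Tnfaip3 in BAT, and none of these passed after adjustment.

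Differences between depots in the C6KO effect were tested as interaction terms in the fit of all 18 libraries, and 0 members were called in any of the 3 contrasts, by edgeR's quasi-likelihood test or by DESeq2. Over all genes, 0% were called for eWAT against iWAT, 0.183% for BAT against iWAT and 0.536% for BAT against eWAT. At an unadjusted p below 0.05 there was 1 member, in 1 of the 3 contrasts. The Tnfaip3 estimate was lower in BAT than in eWAT by a log2 difference of -0.61 ± 0.258 (edgeR adjusted p = 0.374). The share of all genes below this unadjusted threshold is not given here for the interactions. The count of 1 therefore cannot be set against it and does not show a depot difference of Tnfaip3. The Nfkbiz effect in eWAT differed from that in iWAT by -0.64 (interval -1.33 to 0.05, edgeR adjusted p = 0.924) and from that in BAT, taken as BAT minus eWAT, by 0.66 (interval -0.04 to 1.36, edgeR adjusted p = 0.479). No member was thus shown to respond differently between depots.

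The genes around the family were examined as lists. Of 51 other NF-κB pathway genes (adaptors, kinases, ubiquitin ligases and further inhibitors), 0 were called in iWAT and eWAT by edgeR. Pathway genes lower at an unadjusted p below 0.05 numbered 10 in BAT (DESeq2 called 3), 7 in eWAT (DESeq2 called 1) and 9 in iWAT (DESeq2 called 4). The list's median log2 fold change was -0.10 in BAT and -0.09 in both white depots, against -0.03 for all genes in BAT, -0.01 in eWAT and 0.03 in iWAT. Those with the smallest p in iWAT were Plcg2 (log2 -1.14, adjusted p = 0.145), Bcl3 (-0.85, adjusted p = 0.182) and Syk (-1.0, adjusted p = 0.184), and Plcg2 and Syk act below immune receptors. In eWAT, Irak2, an adaptor of interleukin-1 and Toll-like receptors, measured 88.1, 88.4 and 89.3 CPM in WT and 153, 120 and 120 CPM in C6KO (log2 0.56, adjusted p = 0.0571), opposite in direction to most of its list.

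Of 24 receptor genes that feed NF-κB, 0 were called in iWAT (10 were lower at an unadjusted p below 0.05 and DESeq2 called 4), 1 was called higher in eWAT and 3 were called lower in BAT. In eWAT the gene was Tnfrsf12a, the receptor for the cytokine TWEAK, at 16.4, 11.03 and 14.2 CPM in WT and 29.2, 36.7 and 35.4 CPM in C6KO (log2 1.28, adjusted p = 0.0278). In BAT they were Tlr1 (log2 -2.61, adjusted p = 0.0124), Tlr13 (-1.94, adjusted p = 0.0242) and Clec7a (-1.68, adjusted p = 0.0242), pattern receptors of myeloid cells, each without overlap. Each of these calls was lost when some single libraries were left out: the Tnfrsf12a call without any WT library of eWAT (adjusted p = 0.0828, 0.107 and 0.123), and the BAT calls without WT-3 (adjusted p = 0.0552 for Tlr1, 0.0817 for Tlr13 and 0.0526 for Clec7a), without any C6KO library (adjusted p from 0.0589 to 0.122) and, for Tlr13 and Clec7a, without WT-1 (adjusted p = 0.0747 and 0.0742). The receptors tested had medians of -0.75 in BAT, -0.30 in eWAT and -0.65 in iWAT.

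Of 45 target genes, the 32 tested in BAT had a median of -0.66, the 41 in eWAT one of -0.22 and the 38 in iWAT one of -0.55. Ccl2, a monocyte chemoattractant, was the gene called higher in eWAT, at 21.0, 19.0 and 18.3 CPM in WT and 30.03, 32.2 and 34.5 CPM in C6KO (log2 0.73, adjusted p = 0.0432). Cd83, induced in activated antigen-presenting cells, was the gene called lower in BAT, at 14.9, 13.4 and 14.2 CPM in WT and 5.56, 3.81 and 3.89 CPM in C6KO (log2 -1.68, adjusted p = 0.0124). Cd83 had estimates of -1.30 in iWAT (adjusted p = 0.121) and -0.66 in eWAT (adjusted p = 0.132), without overlap in each. The Ccl2 call was lost without any single library but C6KO-2 (adjusted p from 0.0545 to 0.189), and the Cd83 call without WT-3 (adjusted p = 0.0526), C6KO-2 (adjusted p = 0.0906) or C6KO-3 (adjusted p = 0.0803). In iWAT with all libraries 0 targets were called by edgeR, 9 were lower at an unadjusted p below 0.05, and DESeq2 called 7.

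Most macrophage markers had estimates below 0 in every depot, also in eWAT, where 17 of the 41 targets tested had estimates above 0. In BAT 18 of 20 had estimates below 0 (median -1.38), in eWAT 19 (median -0.51) and in iWAT all 20 (median -1.38). In that order of depots edgeR called 9, 0 and 0 lower, DESeq2 17, 6 and 11, and 17, 17 and 18 were lower at an unadjusted p below 0.05. Their sum was 2821 to 3218 CPM in WT iWAT and 740 to 2065 CPM in C6KO, 10680 to 13200 against 6820 to 8856 CPM in eWAT, and 1102 to 1335 against 388 to 580 CPM in BAT, with no overlap in any depot. Without C6KO-3 of iWAT, 17 of 20 macrophage markers, 14 of 39 targets, 10 of 23 receptors and 8 of 51 pathway genes were called lower there, and 0 of 10 members. Without WT-2 of BAT, where 1.05% of genes were called lower, these counts were 13 of 20, 3 of 34, 4 of 21, 0 of 51 and 0 of 10. Other cell type markers moved as well. The 9 progenitor and fibroblast markers all had estimates below 0 in iWAT and BAT (median -0.93 in each, 2 called in BAT), with sums of 5929 to 6110 CPM in WT iWAT against 2210 to 4087 CPM in C6KO. All 10 adipocyte markers had estimates above 0 in eWAT (median 0.67, 2 called) and 9 of 10 did in iWAT (median 0.42, 0 called by edgeR, 1 by DESeq2, 7 at an unadjusted p below 0.05). The part of cell content in the members' estimates was not tested.

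**Figure D5:**
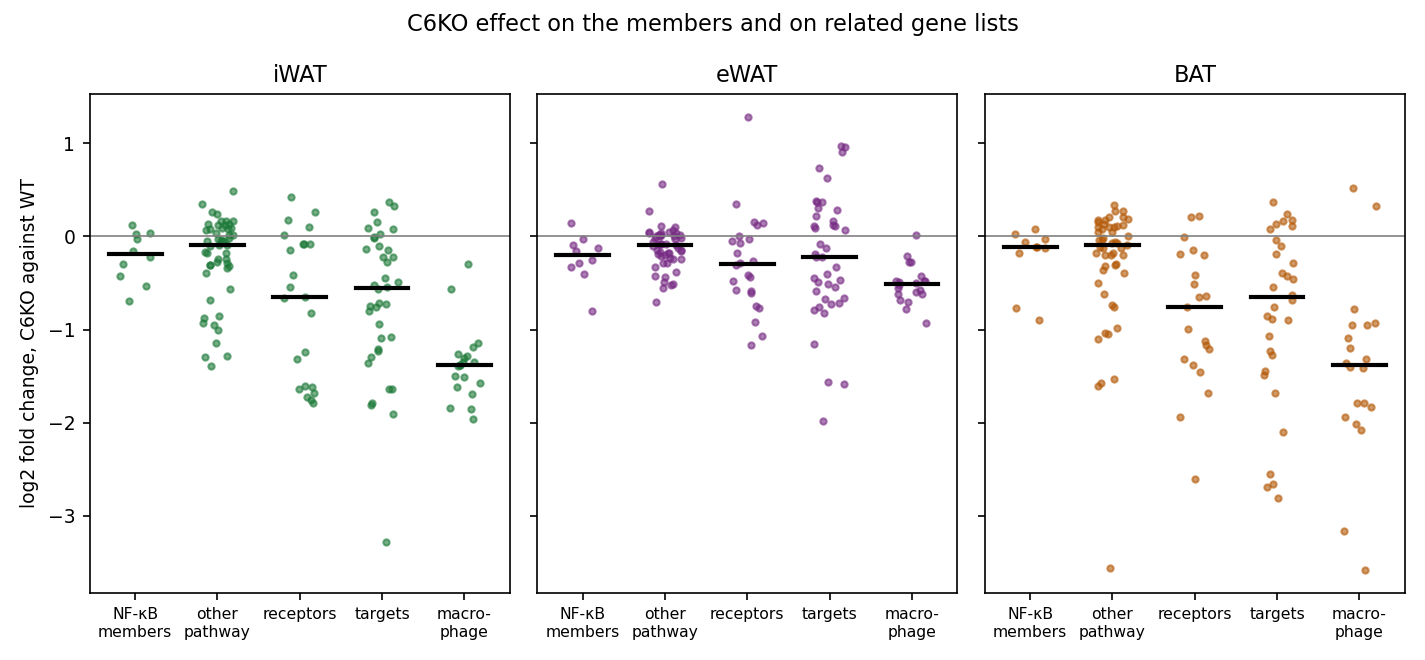
Log2 fold change for C6KO against WT of every tested gene of the 10 members, 51 other pathway genes, the receptors, the targets and 20 macrophage markers, by depot, with bars for medians. The members and other pathway genes lie mostly near 0, and the receptors, targets and macrophage markers reach further down.

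The members also covaried over the 18 libraries after each depot's mean was removed. Among the pairs, Tnfaip3 went with Nfkb2 and with Nfkbie (Pearson r = 0.71 each, log2 CPM) and Rel with Nfkb2 (r = 0.64), while Rela had r = -0.37 with Nfkb1 and -0.23 with Rel. With the mean of each depot and genotype removed instead, these values were 0.78 for Tnfaip3 with Nfkb2, 0.42 for Tnfaip3 with Nfkbie, 0.59 for Rel with Nfkb2, -0.03 for Rela with Nfkb1 and 0.05 for Rela with Rel, so the negative values of Rela were not kept. These points share library depth and cell content and are given as a description. Among the genes most like a member by the same measure, of 15866, were for Nfkbie Cx3cr1 (r = 0.91), Samsn1 (0.86) and Il27ra (0.85), for Tnfaip3 Cxcr4 (0.87) and Rps6ka3 (0.87), and for Rel Notch2 (0.84), Hook2 (0.82) and Gmip (0.82). Under the second centring Cx3cr1 (r = 0.92) stayed the closest gene to Nfkbie, and of the 3 closest genes between 0 and 2 were the same for each member.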

How the data were processed

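RNA was measured by poly(A) sequencing in 18 libraries, and the members and gene lists were chosen with earlier results of these data known. The authors aligned reads to mm10 with STAR and deposited raw exon counts per gene made with HOMER, 1 transcript per gene, in 1 table per depot. Strandedness and annotation version are not given in the sources used here. The deposited counts were tested with edgeR's quasi-likelihood test (edgeR 4.0.16, R 4.3.3; TMM scaling, filterByExpr, robust fit) per depot for C6KO against WT, and in 1 fit of 18 libraries for depot contrasts and interactions, with Benjamini-Hochberg adjustment over all genes tested. DESeq2 1.42.0 was an alternative. Libraries of a group varied most in BAT (biological coefficient of variation 0.32, against 0.191 in eWAT and 0.216 in iWAT). The test was checked on simulated counts with planted changes larger than any C6KO effect estimated for a member. That check does not show whether effects of the members' size would be found. Depot came from the table and genotype and number from the labels. P-values measure the spread between these libraries, which may be partly technical. Genes named from the lists were those called and the 3 with the smallest p per depot, of which a selection is given, and some are not reported here. The alternatives were other scalings, filters, a replicate block and leaving out each library. Those without C6KO-3 of iWAT or WT-2 of BAT were singled out after seeing the data.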

Additional observations from a re-analysis of the deposited data

Results flagged for a closer look

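Among the genes named above, 2 had a C6KO effect that differed between depots when the difference itself was tested in the fit of all 18 libraries, and neither is one of the 10 members. Ccl2 was higher in C6KO than in WT in eWAT (30.03 to 34.5 against 18.3 to 21.0 CPM), whereas in BAT it measured 2.13, 0.663 and 1.17 CPM in C6KO against 16.2, 4.23 and 5.10 CPM in WT. The log2 difference of the effects, BAT minus eWAT, was -3.46 ± 0.621 (SE, edgeR adjusted p = 0.0186). Tnfrsf12a was higher in C6KO in eWAT (29.2 to 36.7 against 11.03 to 16.4 CPM), whereas in BAT it measured 15.3, 11.9 and 14.9 CPM in C6KO against 54.9, 21.9 and 32.7 CPM in WT. Its log2 difference of the effects was -2.68 ± 0.506 (edgeR adjusted p = 0.0238). With single libraries left out, the Ccl2 difference was lost without WT-2 or WT-3 of eWAT or C6KO-2 or C6KO-3 of BAT (adjusted p from 0.0573 to 0.0665), and the Tnfrsf12a difference without any of WT-1, WT-2, WT-3, C6KO-1 or C6KO-2 of eWAT or any C6KO library of BAT (adjusted p from 0.0504 to 0.0928).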

How the results depend on the processing

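No member was called for C6KO against WT in any depot under any alternative run, except Nfkbiz in eWAT by DESeq2 (1 member lower) and Tnfaip3 in BAT with all 18 libraries in 1 fit (1 member lower). Numbers of genes called over the whole table moved far more. In iWAT, where 3 genes were lower and 1 higher, the counts were 26 and 6 with no filter on low counts, 54 and 8 with the replicate block, 505 and 169 by DESeq2, 308 and 58 in the fit of 18 libraries, and 1 lower with at least 10 counts required in every library. In eWAT (31 lower, 80 higher) they were 97 and 224 with no filter, 116 and 298 with the replicate block, 189 and 429 by DESeq2, 3 and 1 in the fit of 18 libraries, 2 and 0 against a fold change of 1.5, and 39 higher with total counts as scaling. In BAT (145 lower, 23 higher) they were 51 and 2 against a fold change of 1.5, 389 and 156 by DESeq2, 430 and 95 in the fit of 18 libraries, and, for higher genes, 47 with no filter, 36 with the count minimum and 12 with the replicate block. For the interactions DESeq2 called 5 lower and 9 higher (eWAT against iWAT), 100 and 64 (BAT against iWAT) and 289 and 52 (BAT against eWAT). The causes were not tested. In WT, 5 members were higher in eWAT than iWAT with no fold minimum or with total counts as scaling, and 7 were lower in BAT than iWAT with no fold minimum. The shares of all genes called under these settings are not given here, so these counts cannot be set against them.

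Estimates near 0 changed sign. With total counts as scaling the C6KO effect in iWAT was -0.03 for Nfkbia and -0.04 for Ikbkb, and the WT differences were 0.01 for Nfkbia (eWAT against iWAT) and -0.11 for Rel (BAT against iWAT). That scaling moved the median of all genes to 0.149 (eWAT against iWAT), -0.131 (BAT against iWAT) and -0.262 (BAT against eWAT). With the replicate block Rel in BAT was -0.03. Same-numbered WT and C6KO libraries had mean correlations of -0.358 in BAT, 0.096 in eWAT and 0.034 in iWAT. Across depots the highest mean was 0.178 (WT iWAT with eWAT, lowest pair 0.079). The labels do not say whether depots of 1 number came from 1 mouse, and the numbers were not taken as pairs, so the depot contrasts treat libraries as independent. The replicate block changed no call among the members in any comparison, leaving 3, 4 and 8 called between WT depots. That block gave WT and C6KO libraries of 1 number a shared term, although they are different mice. It therefore cannot tell whether depots of 1 number came from 1 mouse.

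Leaving out single libraries gave 3 to 951 genes lower and 0 to 327 higher in iWAT, 2 to 93 and 0 to 254 in eWAT, and 24 to 145 and 2 to 33 in BAT. For interactions it gave 0 to 13 lower and 0 to 228 higher (eWAT against iWAT), 10 to 38 and 3 to 74 (BAT against iWAT), and 21 to 182 and 1 to 20 (BAT against eWAT), and 2 to 4 members lower in WT BAT than iWAT. C6KO effects that crossed 0 were, in iWAT, Relb (-0.11 to 0.09), Nfkbia (-0.05 to 0.15), Nfkbiz (-0.38 to 0.08) and Ikbkb (-0.04 to 0.10), in eWAT, Nfkb2 (-0.16 to 0.07), Relb (-0.25 to 0.0049) and Nfkbie (-0.46 to 0.09), and in BAT, Nfkb1 (-0.21 to 0.01), Nfkb2 (-0.31 to 0.02), Rela (-0.05 to 0.03), Relb (-0.21 to 0.07), Rel (-0.44 to 0.36), Nfkbia (-0.07 to 0.27) and Ikbkb (-0.23 to 0.05). Interactions that did were Rel (eWAT against iWAT, -0.03 to 0.34, and BAT against eWAT, -0.07 to 0.75), and Nfkbiz (-0.2 to 0.24) and Nfkbie (-0.32 to 0.13) for BAT against iWAT. WT differences that did were Rela (eWAT against iWAT, -0.03 to 0.05), Rel (BAT against iWAT, -0.12 to 0.12) and Nfkbia (BAT against eWAT, -0.3 to 0.08). BAT libraries were the shallowest, with 19 to 57 counts for Nfkbie.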
